A study of Drosophila melanogaster with 24 samples.

Results

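miR-276a and miR-276b are a pair of microRNA genes of Drosophila melanogaster known from the nervous system. They were followed here across the circulating fluid (hemolymph) and the body tissue of old and young flies. The count table held 6 rows for an arm of mir-276a or mir-276b. Only the row with the most reads was kept per mature name, which gave 4 of the 466 names in the table. These are dme-miR-276a-3p, dme-miR-276b-3p, dme-miR-276a-5p and dme-miR-276b-5p, written below without the species prefix. The counts of the 5p names were equal in all 24 libraries, so the family gives 3 separate measurements, and the 5p count is treated as 1 shared value.

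Small RNA was sequenced from 4 groups of flies labelled male, namely old hemolymph (25 days, n = 8), young hemolymph (2 days, n = 4), old body tissue (25 days, n = 8) and young body tissue (2 days, n = 4). In each compartment 4 of the 8 old libraries carry a description code with R in place of O, of unstated meaning. The labels give no strain, genotype or treatment. Nor do they tie libraries to flies or to pools of flies, so the p-values cover the scatter among libraries, part of which may be technical. Hemolymph and body tissue were extracted with different kits (a serum and plasma kit and a tissue kit), so compartment and kit cannot be told apart. The comparisons ask which microRNAs circulate and how their levels differ with age. Total microRNA counts were 52792 to 120876 in old hemolymph libraries, 56010 to 275974 in young hemolymph, 136692 to 230282 in old body and 180182 to 242935 in young body.

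Some libraries stood apart. The ovary microRNA miR-318-3p, found here in libraries labelled male, was at 11.8 and 36.2 CPM in young hemolymph libraries 1 and 2, against 982 and 1906 CPM in libraries 3 and 4. Young body libraries 1 and 2 held 64.0 and 6660 CPM of it, against 68136 and 54850 CPM in libraries 3 and 4. In old hemolymph it reached 17907 CPM in library 4, against 147 to 2178 CPM in the other 7 libraries, and old body held 14315 to 27895 CPM. Leaving out old hemolymph library 4 changed no call or direction of the miR-276 values. Values without young libraries 1 and 2 are given beside the results whose call or direction they change or that they move by over 1.5 times. The part of such RNA in the miR-276 levels was not tested.

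A microRNA hairpin is cut into a duplex with a 5p and a 3p arm. One arm is usually kept in the Argonaute protein, where bases near its 5′ end (the seed) pair with target messenger RNAs, and the other is mostly lost. The 3p arms of mir-276a and mir-276b are near-identical in sequence and share their seed. In flies miR-276a is known for a role in olfactory memory through a dopamine receptor, and also for a role in daily rhythms.

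Both genes lie on the plus strand of chromosome 3L in the dm6 assembly. The mir-276b hairpin (FBgn0262381) spans 10319785 to 10319883, in an exon of the long noncoding RNA lncRNA:CR46004. The mir-276a hairpin (FBgn0266076) spans 10365228 to 10365325, in an exon of lncRNA:CR46006. The 3p arm of mir-276a is annotated at 10365281 to 10365302 and that of mir-276b at 10319846 to 10319867. The hairpins are 45344 bases apart and annotated inside different noncoding genes.

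The near-identical 3p arms were split between the compartments. miR-276a-3p, the main product of the family, was higher in hemolymph than in body at both ages, 1.66-fold in old and 3.0-fold in young flies. miR-276b-3p was lower in hemolymph at both ages, 14.1-fold in old and 10.5-fold in young flies. All 3 measurements were lower in old than in young flies in each compartment, although the call for the 5p count in body rested on few libraries. Levels below are CPM, the count scaled to the library's total of microRNA counts. They are relative levels, and in such bulk samples fewer source cells and less RNA per cell cannot be told apart.

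miR-276a-3p ran from 46446 through a median of 53247 to 75058 CPM in old hemolymph (8 libraries), at ranks 4 to 5. In young hemolymph it had 183450, 178926, 139832 and 168157 CPM in libraries 1 to 4, which made it the most abundant microRNA in libraries 1 and 2 and the runner-up in the others. Old body gave 29051, 30317 and 35934 CPM as lowest, median and highest, with rank 9 in each library, and young body libraries 1 to 4 had 77775, 58352, 41069 and 48079 CPM, at ranks 3 to 10. Young hemolymph thus stood far above the other groups and old body lay below them all, without overlap. Old hemolymph (56688 ± 9902 CPM, SD, n = 8) and young body (56319 ± 15968 CPM, SD, n = 4), neighbours in that order, overlapped over most of their range.

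miR-276b-3p, the 3p product of the second gene, had 94.7, 183 and 245 CPM as lowest, median and highest values in old hemolymph. Young hemolymph libraries 1 to 4 held 330, 413, 499.9 and 491 CPM. Old body ran from 2078 through 2331 to 2670 CPM, and young body had 6255, 4179, 3881 and 4182 CPM in libraries 1 to 4. All 4 groups were separate, with young body highest, then old body, young hemolymph and old hemolymph. The hemolymph values rest on few reads, 5 to 28 per library in old and 28 to 114 in young hemolymph, against 296 to 534 in old and 753 to 1172 in young body.

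The shared 5p count, from the arm that is mostly lost, ran from 381 through 584 to 673 CPM in old hemolymph. In young hemolymph it was 1649, 1033, 1375 and 1343 CPM in libraries 1 to 4. In old body it ran from 257 through 309 to 404 CPM, and young body had 646, 466, 359 and 346 CPM. Young hemolymph was again apart from the rest, as for miR-276a-3p, while old hemolymph overlapped both body groups and old body overlapped young body.

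**Figure D1:**
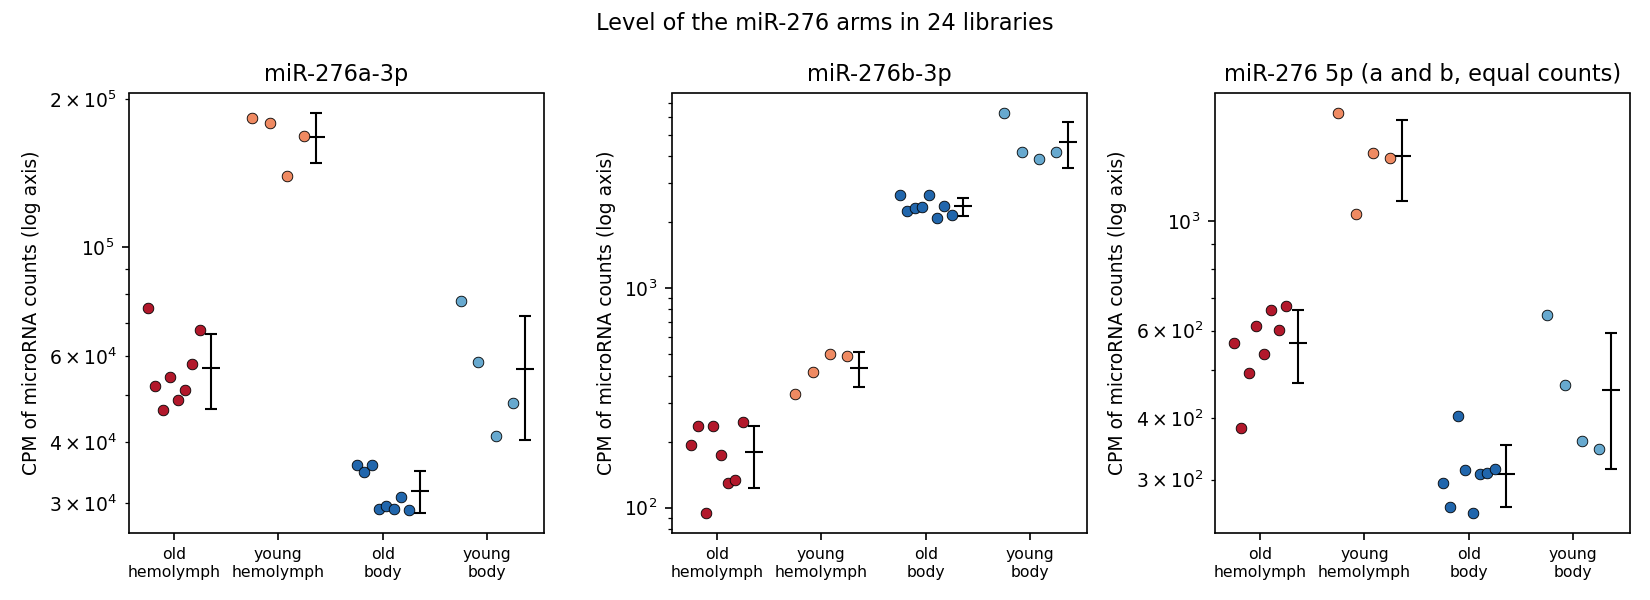
Level of miR-276a-3p, miR-276b-3p and the shared 5p count in CPM (log axis) in every library, in 4 groups, with the mean ± SD of each group. miR-276a-3p is highest in young hemolymph (139832 to 183450 CPM), whereas miR-276b-3p is highest in young body (3881 to 6255 CPM).

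In old hemolymph against old body, miR-276a-3p was higher by a log2 fold change of 0.73 ± 0.19 (SE; edgeR's quasi-likelihood test, adjusted p = 0.000944), and the libraries did not overlap. miR-276b-3p was lower, with a log2 fold change of -3.82 ± 0.22 (adjusted p = 1.67e-13), again without overlap. The 5p count was higher by 0.79 ± 0.20 (adjusted p = 0.000894), although its highest old body library (404 CPM) lay above its lowest old hemolymph library (381 CPM). With only the old libraries whose description code holds O, the 5p value was 0.59 and not called (edgeR adjusted p = 0.0548). All 4 names were called, and so were 82.3% of the 124 tested microRNAs (36.3% higher and 46.0% lower), so a call did not set the family apart. Upper-quartile scaling made the split of all calls 55 higher and 50 lower, and RLE scaling 42 and 63, in place of 45 and 57. Of the 124, 62.1% did not overlap between the groups. The log2 fold change was below that of miR-276b-3p for 17 of the 124.

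Young hemolymph against young body gave the same split. miR-276a-3p was at 1.59 ± 0.27 (edgeR's quasi-likelihood test, adjusted p = 1.09e-05), miR-276b-3p at -3.39 ± 0.30 (adjusted p = 4.25e-10) and the 5p count at 1.58 ± 0.28 (adjusted p = 1.65e-05). None of the 3 overlapped between young hemolymph and young body. All 3 measurements were called, beside 73.4% of the 124 tested microRNAs (33.1% higher and 40.3% lower). Of the 124, 55.6% did not overlap. Upper-quartile scaling made the split of all calls 55 higher and 45 lower, and RLE scaling 36 and 60, in place of 41 and 50. Without young libraries 1 and 2, miR-276a-3p stood at 1.74 and miR-276b-3p at -3.07. The median log2 fold change of all tested microRNAs was -0.45 in old and -0.26 in young flies. RLE scaling shifted all young values by a median of -0.48 and upper-quartile scaling by 0.61, and old values by -0.27 and 0.48. The directions of all 3 measurements held under both.

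The ratio of the 3p arms within a library does not depend on such scaling. There were 212.6 to 445.9 reads of miR-276a-3p for each read of miR-276b-3p in old hemolymph and 275 to 551 in young hemolymph, against 11.1 to 15.5 in old body and 10.6 to 14.0 in young body (0.5 was added to each count). On the log2 scale the ratio averaged 8.29 ± 0.41 in old hemolymph and 3.75 ± 0.16 in old body (SD, n = 8 each). The difference of 4.54, a 23.3-fold shift of the ratio, gave the smallest p that 8 against 8 libraries allow (exact permutation test, two-sided, p = 0.000155, adjusted p = 0.00117 over 15 tests). In young flies it averaged 8.59 ± 0.44 in hemolymph and 3.59 ± 0.17 in body (SD, n = 4 each), a 32.0-fold shift. That exact permutation p of 0.0286 is the smallest 4 against 4 libraries can give, and it was 0.0612 after adjustment. No hemolymph library came near a body library, as the plot of the ratios shows.

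Because near-identical arms may exchange reads, the share of miR-276b-3p in the sum of both 3p arms was taken in each library. The lowest share was 0.179% in young hemolymph library 1 (exact Clopper-Pearson 95% interval 0.136 to 0.233%, for counting error only, as reads without molecular identifiers are not independent molecules). The highest in hemolymph was 0.451% (0.240 to 0.770%), in old hemolymph library 2. Body libraries ran from 6.06% (5.57 to 6.58%), in old body library 3, to 8.63% (8.06 to 9.24%), in young body library 3. If the fraction of miR-276a-3p reads counted as miR-276b-3p was the same in every library, it was no larger than the lowest hemolymph share, beyond counting error. Whether that fraction was the same in hemolymph and body libraries was not tested. The sources used here do not say how reads matching both names were counted, and the part of such reads in the hemolymph counts of miR-276b-3p was not tested.

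**Figure D2:**
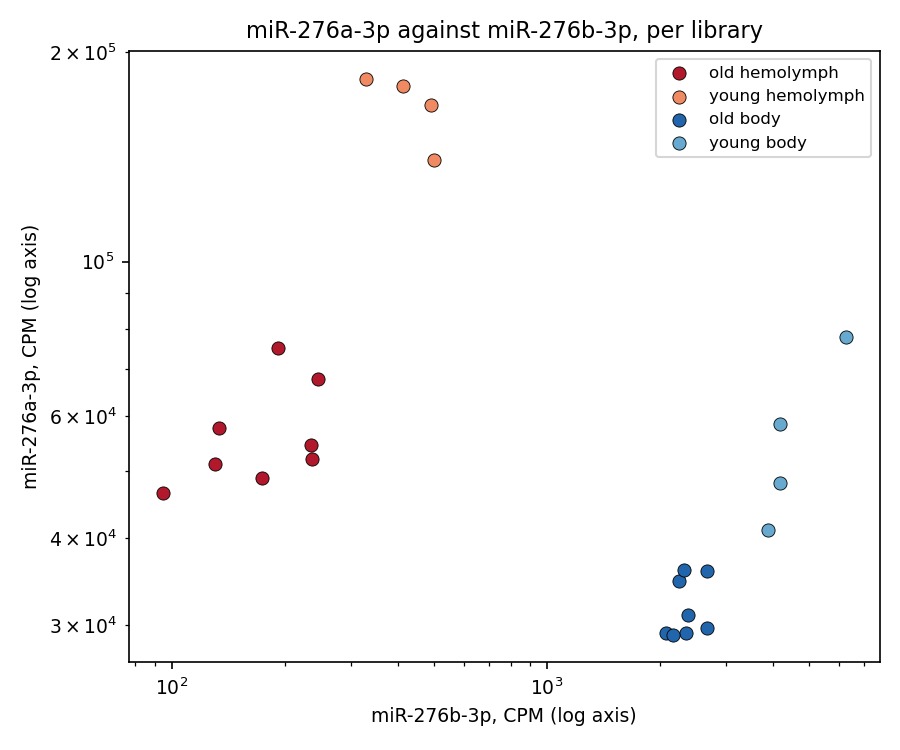
miR-276a-3p against miR-276b-3p in CPM, one point per library, both axes logarithmic, coloured by group. On the miR-276b-3p axis hemolymph libraries (94.7 to 499.9 CPM) lie apart from body libraries (2078 to 6255 CPM), while on the miR-276a-3p axis old hemolymph and young body share a range.

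In old against young hemolymph all 3 measurements were lower. miR-276a-3p had a log2 fold change of -1.80 ± 0.15 (SE; edgeR's quasi-likelihood test, adjusted p = 2.19e-06), miR-276b-3p of -1.49 ± 0.23 (adjusted p = 0.000189) and the 5p count of -1.47 ± 0.20 (adjusted p = 5.66e-05). The old and young hemolymph libraries did not overlap for any of them. All 3 measurements were called lower, against 27.9% of the 86 microRNAs tested there (46.5% were called in all and 18.6% were called higher). Of the 86, 29.1% did not overlap, and 5 had a log2 fold change below that of miR-276a-3p. The median of all 86 was 0.02.

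As a share of all microRNA counts, the family took 5.74% ± 0.996 in old hemolymph (SD, n = 8), against 16.9% ± 1.95 in young hemolymph (SD, n = 4). The shares did not overlap, and the difference was -11.2 percentage points (exact permutation test, two-sided, p = 0.00404, the smallest 8 against 4 libraries can give, adjusted p = 0.0152). It was -9.84 points and not called without young libraries 1 and 2 (exact permutation test, adjusted p = 0.133), with 2 young libraries left.

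In old against young body miR-276a-3p had a log2 fold change of -0.91 ± 0.19 (SE; edgeR's quasi-likelihood test, adjusted p = 0.00140) and miR-276b-3p of -1.04 ± 0.17 (adjusted p = 0.000418), and neither overlapped between the groups. The 5p count stood at -0.64 ± 0.21 (adjusted p = 0.0254), with overlap, and its call rested on young body library 1, without which it was at -0.33 (adjusted p = 0.0913). Its call was also lost with either code of old libraries alone and with limma. All 3 measurements were called lower, beside 29.6% of the 115 microRNAs tested (48.7% were called in all and 19.1% were called higher). Of the 115, 30.4% did not overlap. Without young libraries 1 and 2 the values were -0.43 for miR-276a-3p (adjusted p = 0.000888), -0.71 for miR-276b-3p (adjusted p = 4.14e-05) and -0.13 for the 5p count (adjusted p = 0.540). In an edgeR fit that blocks same-numbered libraries, which no label pairs, neither 3p arm was called. It gave -0.78 for miR-276a-3p (adjusted p = 0.12) and -1.01 for miR-276b-3p (adjusted p = 0.0575). Young body library 1 was the highest young body library for all 3 measurements and the lowest for miR-318-3p.

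The family took 3.45% ± 0.321 of all microRNA counts in old body libraries (SD, n = 8), and the share in young body was 6.14% ± 1.71 (SD, n = 4). The difference was -2.69 percentage points (exact permutation test, two-sided, p = 0.00404, adjusted p = 0.0152). It was -1.45 points and not called without young libraries 1 and 2 (exact permutation test, adjusted p = 0.133).

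No difference of the balance of the genes with age passed the test. The log2 ratio of miR-276a-3p to miR-276b-3p averaged 8.29 in old and 8.59 in young hemolymph, a difference of -0.30 (exact permutation test, p = 0.267, adjusted p = 0.308). That difference ran from -0.46 without young hemolymph library 3 to -0.13 without young hemolymph library 1, and it turned to 0.042 without young libraries 1 and 2. In body it averaged 3.75 in old and 3.59 in young flies, a difference of 0.16 (exact permutation test, p = 0.133, adjusted p = 0.182), which was 0.29 without young libraries 1 and 2 and 0.098 without young body library 3. A p above the threshold does not show that the ratios were equal.

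Whether the change with age differed between hemolymph and body depended on the processing. The age change in hemolymph minus that in body was -0.86 ± 0.32 for miR-276a-3p (edgeR's quasi-likelihood test, adjusted p = 0.0737), -0.79 ± 0.34 for the 5p count (adjusted p = 0.110) and -0.43 ± 0.34 for miR-276b-3p (adjusted p = 0.438). None of the 4 names passed the adjusted threshold in edgeR, beside 14.5% of 124 tested microRNAs that did, while 2 of the 3 measurements (miR-276a-3p and the 5p count) had an unadjusted p under 0.05. For miR-276a-3p the difference was called under 9 of 13 other settings, among them DESeq2 (-0.703, adjusted p = 0.0180). Another of the 9, an edgeR fit that blocks same-numbered libraries, put the difference at -1.01 ± 0.28 (adjusted p = 0.0198), although no label pairs them. Without young libraries 1 and 2 it was called for all 3 measurements, at -1.05, -1.14 and -0.77 for miR-276a-3p, the 5p count and miR-276b-3p. As shares of counts, the same difference was -8.50 percentage points (exact permutation of age labels within compartments, p = 0.0186, adjusted p = 0.0558).

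**Figure D3:**
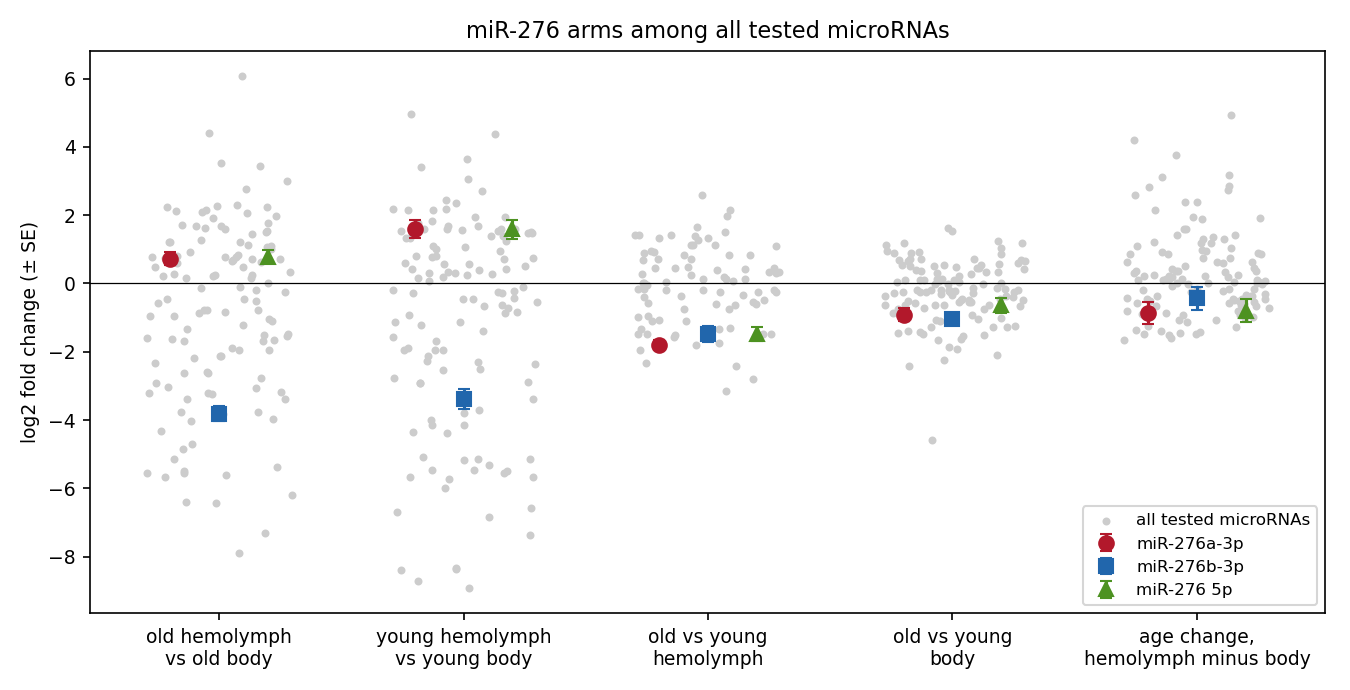
Log2 fold change (± SE) of miR-276a-3p, miR-276b-3p and the 5p count in the 5 comparisons, over grey points for all tested microRNAs (86 to 124 per comparison). Hemolymph against body separates miR-276b-3p (-3.82 and -3.39) from the others, and in the age comparisons the 3 values lie together below 0.

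No difference between compartments in the proportion of the arms passed the test, which does not show that the proportions were equal. The sum of both 3p arms exceeded the 5p count 76.8-fold to 134-fold in old hemolymph and 101-fold to 173-fold in young hemolymph, against 94.2-fold to 138-fold in old body and 124-fold to 150.3-fold in young body. These ranges overlapped between hemolymph and body at each age. On the log2 scale the ratio averaged 6.64 ± 0.28 in old hemolymph and 6.79 ± 0.21 in old body (SD, n = 8 each), a difference of -0.15 (exact permutation test, p = 0.235, adjusted p = 0.294). It averaged 6.97 ± 0.34 in young hemolymph and 7.07 ± 0.12 in young body (SD, n = 4 each), a difference of -0.10 (exact permutation test, p = 0.60, adjusted p = 0.643). With age it differed by -0.33 in hemolymph (exact permutation test, p = 0.117, adjusted p = 0.176) and by -0.28 in body (exact permutation test, p = 0.0485, adjusted p = 0.0909), so no difference of the arm ratio passed adjustment. Without young libraries 1 and 2 the difference was -0.28 in young hemolymph against young body and -0.18 in old against young hemolymph.

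The rare arm and the rare gene changed places. In hemolymph the 5p count was above that of miR-276b-3p in every library, with 21 to 77 against 5 to 28 reads in old and 77 to 285 against 28 to 114 reads in young hemolymph. In body the 5p count was below it in every library, with 42 to 93 against 296 to 534 reads in old and 71 to 121 against 753 to 1172 reads in young body. In hemolymph the least abundant of the 3 measurements was thus miR-276b-3p, and in body it was the 5p arm.

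**Figure D4:**
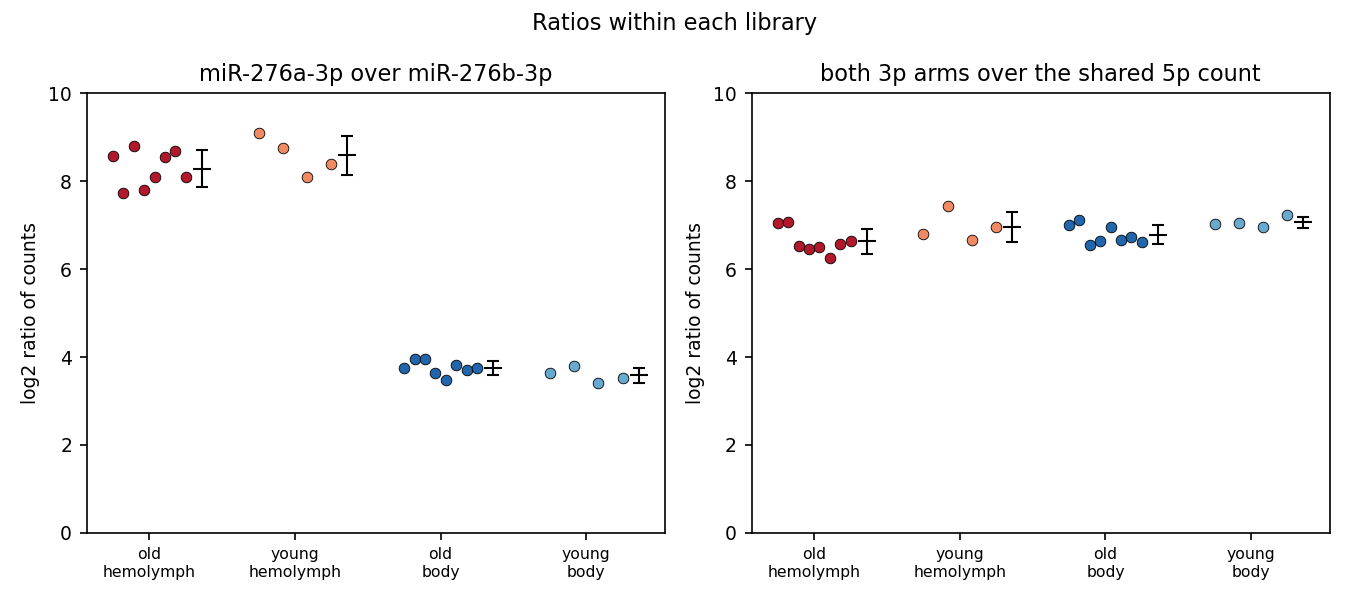
Log2 ratio of counts within each library (points), with mean ± SD beside each group, for miR-276a-3p over miR-276b-3p (left) and for both 3p arms over the shared 5p count (right). The left ratio averages 8.29 and 8.59 in old and young hemolymph against 3.75 and 3.59 in old and young body, whereas the right averages 6.64 to 7.07 in all groups.

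Other microRNAs that carry a family letter (such as miR-9a and miR-9b) were paired in the same way, a comparison chosen after these values were seen. In old hemolymph against old body the log2 fold changes of miR-276a-3p and miR-276b-3p lay 4.55 apart, against a median of 0.96 in 10 other pairs of one arm. The widest of those was 3.33, for miR-9a-3p (-1.88) and miR-9b-3p (1.45). In young flies the gap was 4.97, against a median of 1.30 and a widest gap of 3.94 in 10 other pairs, again miR-9a-3p (-2.12) and miR-9b-3p (1.82). miR-31a-5p and miR-31b-5p were also apart, at -0.45 and -4.37 in young flies and at -0.45 and -3.18 in old flies. With age the gap of the miR-276 arms was 0.31 in hemolymph, where 6 other pairs had a median of 0.86, and 0.13 in body, where 11 other pairs had a median of 0.60. The pairs share members and libraries, so these are descriptions with no test.

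**Figure D5:**
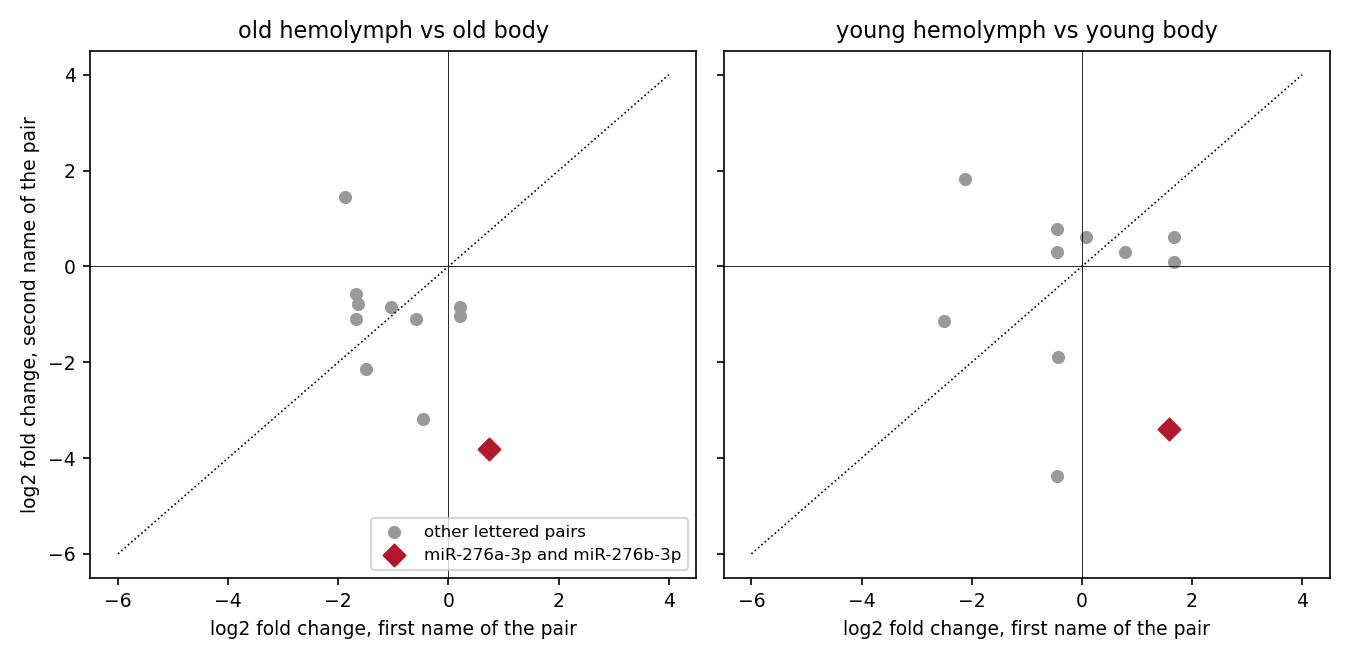
Log2 fold change, hemolymph against body, of the first name of each lettered pair (x axis) against the second (y axis), in old (left) and young flies (right), with a dotted line where both are equal. miR-276a-3p and miR-276b-3p have the widest gap at both ages (4.55 and 4.97).

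Among 98 microRNAs with a mean of at least 100 CPM, those most like miR-276a-3p over the 24 libraries were miR-282-5p (Pearson r of log2 CPM 0.89), miR-9a-5p (0.88), miR-277-5p (0.81), miR-279-3p (0.79) and miR-998-5p (0.78). The shared 5p count had an r of 0.95 with it and miR-276b-3p one of -0.41. These values carry the differences between the 4 groups and share every library. Deviations from the group means gave miR-14-3p (0.74), miR-9a-5p (0.72), miR-278-3p (0.69), miR-31a-5p (0.64) and miR-316-5p (0.57), while the 5p count stood at 0.53 and miR-276b-3p at 0.42 with miR-276a-3p. For miR-276b-3p, outside the rule for named microRNAs, log2 CPM was most like that of miR-958-3p (0.96), miR-932-5p (0.94), miR-956-3p (0.93) and of miR-1-3p (0.92) and miR-133-3p (0.90), both known from muscle. By deviations from the group means its 5 were miR-958-3p (0.70), miR-31a-5p (0.50), miR-956-3p (0.47), miR-275-3p (0.46) and miR-932-5p (0.45), with neither muscle microRNA.

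miR-9a-5p, known from the development of sensory organs, was among the 5 by both measures. It had 4865 ± 723 CPM in old hemolymph (SD, n = 8) and 20315 ± 13509 CPM in young hemolymph (SD, n = 4), with a log2 fold change of -2.33 ± 0.32 (edgeR's quasi-likelihood test, adjusted p = 5.66e-05). In body it had 3932 ± 846 CPM in old and 6042 ± 4253 CPM in young flies, and the value of -0.75 ± 0.34 was not called (adjusted p = 0.0877). miR-282-5p was lower in old than in young flies in hemolymph (-2.79 ± 0.29, adjusted p = 6.29e-06) and in body (-4.59 ± 0.55, adjusted p = 5.87e-05).

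Other listed microRNAs of the head and nervous system were mostly scarce in hemolymph, as miR-276b-3p was and miR-276a-3p was not. The list was chosen with earlier results of these data known, so its counts and median describe it and test nothing. Of 14 listed beside the family, 11 could be tested between compartments, and 9 were lower and 2 higher in hemolymph at each age, where 46.0% (old) and 40.3% (young) of all tested microRNAs were lower and 36.3% and 33.1% higher. Their median log2 fold change was -5.37 in old and -5.67 in young flies, beside -0.45 and -0.26 for all tested microRNAs. miR-210-3p, known from photoreceptors, was at 31.0 ± 35.7 CPM in old hemolymph and 2331 ± 386 CPM in old body (-6.39 ± 0.33, edgeR adjusted p = 3.06e-14). miR-987-5p was at 5.32 ± 9.94 CPM in old hemolymph and 822 ± 121 CPM in old body (-7.31 ± 0.58, edgeR adjusted p = 3.0e-11). miR-190-5p, known for a role in sleep, was higher in old hemolymph like miR-276a-3p (1.58 ± 0.16, edgeR adjusted p = 3.44e-09). With age 6 of 11 were lower and 2 higher in body, beside 29.6% lower and 19.1% higher of all tested there. In hemolymph 1 of 3 tested was higher, beside 18.6% of all.

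Between the compartments, a list for memory, sleep and clock held microRNAs called in both directions, in shares near those of all tested microRNAs. This list too was chosen with earlier results of these data known. Of 15 microRNAs beside the family 13 were tested, with 5 higher and 7 lower in old hemolymph than in old body, and 5 higher and 6 lower in young hemolymph than in young body. Of all 124 tested, 36.3% were higher and 46.0% lower in old flies, and 33.1% and 40.3% in young flies. The median log2 fold change of the 13 was -1.49 in old and -1.13 in young flies, beside -0.45 and -0.26 for all tested microRNAs. miR-279-3p, which acts in clock output, was higher in old hemolymph (0.69 ± 0.14, edgeR adjusted p = 0.000109), as was let-7-5p, a developmental timer (2.23 ± 0.23, edgeR adjusted p = 3.34e-09). miR-263a-5p was lower there (-1.49 ± 0.33, edgeR adjusted p = 0.000208), and miR-92b-3p stood at -0.78 ± 0.47 (edgeR adjusted p = 0.124). With age 2 of 9 tested in hemolymph were lower and 0 higher, with miR-279-3p at -0.95 ± 0.20 (edgeR adjusted p = 0.00188). In body 3 of 12 were higher and 6 lower. Of all tested microRNAs, 18.6% were higher and 27.9% lower in hemolymph, and 19.1% were higher and 29.6% lower in body.

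Neuron and muscle markers were lower in every hemolymph library than in any body library. The summed ovary share was also lower in hemolymph, with overlap in old but not in young flies. The testis share overlapped between compartments at both ages. No microRNA was fixed as a marker of the fluid itself. The neuron microRNA miR-124-3p had 1 read over all old hemolymph libraries and 0 in young hemolymph, which allows up to 3 reads over that group, against 154 reads in old and 195 in young body. The muscle pair of miR-1-3p and miR-133-3p made up 0.00267 to 0.0170% of old hemolymph and 0.0144 to 0.0393% of young hemolymph counts, against 0.153 to 0.202% in old body libraries and 0.225 to 0.447% in young. The 3 ovary microRNAs took 0.0227 to 2.02% of old hemolymph and 0.00236 to 0.215% of young hemolymph counts, against 1.98 to 3.58% in old body libraries and 0.255 to 8.03% in young. All 3 were called lower in hemolymph at both ages, beside 46.0% (old) and 40.3% (young) of all tested microRNAs. Their median log2 fold change was -3.21 in old and -5.50 in young flies. Of the 3, miR-989-3p did not overlap between compartments at either age. The 14 testis cluster microRNAs took 0.000827 to 0.0170% of old hemolymph and 0.00179 to 0.00883% of young hemolymph counts, against 0.0123 to 0.0198% in old body libraries and 0.00610 to 0.00860% in young, and no member could be tested. Muscle, neuron and ovary markers thus lay in the direction of miR-276b-3p between the compartments, and their part in its levels was not tested.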

How the data were processed

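The authors deposited 1 table of 476 rows, each a mature microRNA with its hairpin, holding whole read counts per library, per the file headers. The deposited RPM values matched count over column total within 0.005 and were not tested. Bowtie 1.0, edgeR and dm6 are named, without roles, in the submitters' processing notes. Trimming and multiple matches were not described. The row with the most reads stood for each mature name, and 10 repeats were dropped.

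Counts were tested in R 4.3.3 with edgeR 4.0.16 (filterByExpr, minimum count 10, TMM, quasi-likelihood test, Benjamini-Hochberg over all tested microRNAs, threshold 0.05). Compartments and the interaction used all 24 libraries, and ages the libraries of one compartment. SE was taken from the log2 fold change and F. Within-library ratios and shares were tested by exact permutation, adjusted over 15 tests. Scripts were checked on simulated data. DESeq2 1.42.0 and limma 3.58.1 served as alternatives. The members, lists and tests were chosen with earlier results of these data known. Named microRNAs are the 4 members, the 5 most like miR-276a-3p by either measure (log2 of CPM plus 1), and up to 4 of each list with the highest CPM. Same-numbered young hemolymph and body libraries had an r of deviations across microRNAs of 0.12 to 0.603. Young hemolymph library 2 was most like young body library 1 (0.537), and young hemolymph library 3 most like young body library 4 (0.384). Young hemolymph libraries 1 and 4 were most like the young body libraries of the same number (0.603 and 0.593). The labels thus do not pair the young libraries by number, and the data match them by number only in part.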

Additional observations from a re-analysis of the deposited data

Results flagged for a closer look

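Of 24 sets of values (3 levels and 3 within-library measures in 4 groups), 2 held a library far from the others, and chance alone marks about 1 in 20 such sets. miR-276b-3p stood at 6255 CPM in young body library 1, against 3881 to 4182 CPM in the other young body libraries. The 5p count stood at 404 CPM in old body library 3, against 257 to 315 CPM in the other old body libraries. The first library was also the highest of its group for miR-276a-3p and the 5p count.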

How the results depend on the processing

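Of 273 member values under alternative settings, 234 kept their direction and their side of the threshold, 18 lost a call, 17 gained one and 4 changed sign. The hemolymph against body values of miR-276a-3p and miR-276b-3p, and the old against young hemolymph values of all 3 measurements, kept both under all 14 alternatives and without any single library. The causes of the changes below were not tested, except that using O or R libraries alone, or leaving out young libraries 1 and 2, leaves few libraries for the exact tests.

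Same-numbered libraries outside the young groups had an r from -0.322 to 0.461. The numbers do not pair libraries there or in the young groups. The replicate block changed calls only with age. In old against young body miR-276a-3p stood at -0.78, miR-276b-3p at -1.01 and the 5p count at -0.56, none called. The difference of age changes of miR-276a-3p stood at -1.01, called. The difference of age changes of miR-276a-3p was also called with RLE (-0.70), upper-quartile (-1.03) or library-size scaling (-0.74), without miR-8-3p and miR-956-3p (-0.95), with DESeq2 (-0.703), with limma (-1.07), with the 5p rows counted once (-0.77) and without young libraries 1 and 2 (-1.05). That of the 5p count was called with upper-quartile scaling (-0.97), without miR-8-3p and miR-956-3p (-0.86), with limma (-1.06) and without young libraries 1 and 2 (-1.14). That of miR-276b-3p was 0.042 among microRNAs of at least 100 CPM, a change of sign, and was called without young libraries 1 and 2 (-0.77).

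The 5p count lost its call in old hemolymph against old body with O libraries (0.59), and in old against young body with limma (-0.30), with O (-0.64) or R libraries (-0.65) and without young libraries 1 and 2 (-0.13). With O and R libraries the exact tests no longer passed for the ratio of 3p arms in old hemolymph against old body (4.41 and 4.67), nor for the family's share there (2.11 and 2.48 points), in old against young body (-2.48 and -2.90) and in old against young hemolymph (-11.17 and -11.22). Without young libraries 1 and 2 the shares by age stood at -1.45 points in body and -9.84 in hemolymph, not called. The ratio of 3p arms in old against young hemolymph changed sign to 0.042 without young libraries 1 and 2. The difference of age changes of the arm ratio, near 0 throughout, changed sign with O libraries (0.047) and without young libraries 1 and 2 (0.13). With 5 added in place of 0.5, the ratio of 3p arms passed in young hemolymph against young body (4.87) and in its difference of age changes (-0.74), and the arm ratio passed in old against young body (-0.33).

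Leaving out 1 library at a time gave -1.19 to -0.49 for the difference of age changes of miR-276a-3p, called without old body 5, young body 1, old hemolymph 5 or young hemolymph 1, 2 or 3. It gave -1.16 to -0.40 for that of the 5p count, called without old body 5, young body 1 or young hemolymph 2, -0.76 to -0.098 for that of miR-276b-3p, never called, and -0.82 to -0.33 for the 5p count in old against young body. The arm ratio ranged from -0.26 to 0.00038 in young hemolymph against young body and from -0.15 to 0.11 in its difference of age changes, where it was 0.0039 without old hemolymph 6. The difference of age changes of the share ranged from -9.43 to -7.97 points, called without young body 1 or young hemolymph 3.

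Of all microRNAs 56 were called in old against young body, against 35 with limma, 5 with the block and 28 with O or R libraries, and upper-quartile scaling made the split 13 higher and 35 lower in place of 22 and 34. In old against young hemolymph 40 were called, against 20 with the block and 25 with O libraries, and library-size scaling made the split 20 and 19 in place of 16 and 24. For the difference of age changes 18 were called, against 28 with RLE scaling, 9 without a filter, 30 with DESeq2, 5 with R libraries and 29 without young libraries 1 and 2, and upper-quartile scaling made the split 8 and 19. Depth limits miR-276b-3p most, with as few as 5 reads in a hemolymph library.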
